A study of Homo sapiens with 40 samples.

Results

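The cytosolic ribosomal proteins and the factors that start and elongate translation were followed on 40 arrays of human myeloma and lymphoma cell lines that carried hairpins against CASP10, the gene of the initiator caspase caspase-10. Members were taken by gene symbol: RPL or RPS with a number, the P-stalk and RPSA genes, EEF genes, and EIF genes with a number, without the S6 kinases, the mitochondrial ribosomal proteins and the eIF2 kinases. This gave 53 genes on 120 probes, of 4604 named genes and 15246 probes on the array. They comprised 14 genes of the large (60S) subunit, 1 of the P-stalk (RPLP1), 14 of the small (40S) subunit, 5 of elongation and 19 of initiation, so 29 ribosomal proteins on 69 probes and 24 translation factors on 51 probes. RPL21P106, a pseudogene taken by its symbol, is counted among the large-subunit genes and the 29 ribosomal proteins. RPLP0, RPL3, RPL4, RPSA, EEF2, EIF4A1 and EIF5A were not analysed here. One member is Y-linked and was counted but is not described singly.

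The myeloma lines SKMM1, H929 and KMS12 and the B-cell lymphoma lines OCI-Ly7 and OCI-Ly19 carried a retroviral shRNA that doxycycline at 20 ng/ml switches on, and transduced cells were selected with puromycin. Each array set induced cells, labelled with Cy5, against uninduced cells of the same line, vector and day, labelled with Cy3; a further 4 arrays set SKMM1 with induced shCasp10-2 against SKMM1 with an induced control hairpin, shCtrl, on days 1 to 4. SKMM1 carried shCasp10-2 in 3 repeats, taken as 4 arrays each. H929 carried shCasp10-2 in 2 repeats and shCasp10-3 in 1, KMS12 carried each hairpin in 1, again with 4 arrays per repeat, and OCI-Ly7 and OCI-Ly19 carried shCasp10-2 with 2 arrays apiece, on days between 1 and 5 of induction. The days that share a line, a hairpin and a repeat form a course, which was the replicate; they may come from 1 culture. There were 8 myeloma courses, 1 course in each lymphoma line and 1 against shCtrl. P-values from course means measure the spread between the myeloma courses of a line. In fits of single arrays the days of a course enter as separate values, so those p-values also rest on the spread between days. Values are log ratios of induced over reference cells, read as log2; the direction and the base are likely but not stated. Equal amounts of RNA were labelled, so a ratio compares shares of the RNA, and fewer cells holding a transcript cannot be told apart from less of it per cell. A ratio gives no level, so the labelled cell types could not be checked against marker genes.

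A ribosome is built from a small subunit, which decodes the mRNA, and a large subunit, which joins amino acids. Initiation factors bring the small subunit, the initiator tRNA and the mRNA together: eIF2 carries the tRNA and is recharged by eIF2B, eIF3 scaffolds the small subunit, eIF4F recognises and unwinds the cap-proximal mRNA, and eIF6 keeps free large subunits apart from small ones. eEF1A then delivers aminoacyl-tRNA, with eEF1B as its exchange factor. Vertebrate mRNAs of the ribosomal proteins and of several translation factors begin with a C followed by a run of pyrimidines, the terminal oligopyrimidine (TOP) motif, through which mTOR signalling controls their translation. Plasma cells, from which myeloma derives, secrete immunoglobulin and depend on a high capacity for protein synthesis.

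The start sequences of members that carry the results are shown first, because members with and without the TOP motif are compared below. Of the 53 members, 40 had a start sequence in the RefSeq promoter table (GRCh38.p14); EEF1D, EEF2KMT, EIF2S2, EIF3E, EIF3H, EIF4EBP1, RPL21P106, RPL37, RPL5, RPL8, RPS15A, RPS2 and RPS20 were not among them. Each line gives 30 bases, 15 before the RefSeq start and 15 from it; capitals mark the C at the start and the pyrimidines that follow it without a break, and lines without capitals lack the motif. The first 9 hold it, and the last 3 do not.
RPS3 (chr11:75399503-75399532, plus strand): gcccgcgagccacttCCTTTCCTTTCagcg
RPS9 (chr19:54200843-54200872, plus strand): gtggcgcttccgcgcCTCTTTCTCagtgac
RPS16 (chr19:39435935-39435964, minus strand): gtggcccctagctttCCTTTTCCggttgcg
RPS6 (chr9:19380222-19380251, minus strand): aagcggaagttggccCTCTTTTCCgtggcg
RPS21 (chr20:62387088-62387117, plus strand): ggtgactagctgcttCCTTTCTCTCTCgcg
RPL37A (chr2:216498829-216498858, plus strand): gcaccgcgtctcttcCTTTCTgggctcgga
RPLP1 (chr15:69452803-69452832, plus strand): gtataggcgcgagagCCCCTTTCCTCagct
EEF1A1 (chr6:73521018-73521047, minus strand): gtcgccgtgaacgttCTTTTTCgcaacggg
EIF3M (chr11:32583816-32583845, plus strand): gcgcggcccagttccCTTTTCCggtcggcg
RPS4X (chrX:72277234-72277263, minus strand): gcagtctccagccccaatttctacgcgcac
RPL13 (chr16:89560642-89560671, plus strand): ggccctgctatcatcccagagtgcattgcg
EIF4G2 (chr11:10807982-10808011, minus strand): gaggttgtcggaagcacttccctaacttgc
The motif was counted on the sense strand as a C at the first base of the transcript followed by at least 4 bases that were C or T. It stood at the start of 14 of 22 ribosomal proteins with a sequence (63.6%) and of 2 of 18 translation factors (11.1%), EEF1A1 and EIF3M, against 1104 of all 27305 genes in the table (4.04%). The table lists 1 start for a gene, so a missing match says only that these letters are not at that start.

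The arrays differed in width. On 12 of the 40, called wide below, more than 10% of probes were beyond 3 in either direction, and the deposited values were not centred. All 4 arrays of SKMM1 repeat 2 were wide, with negative tails, and an array of repeat 2 correlated at r = -0.517 with one of repeat 3, so the direction of repeat 2 is not settled although the labels state the same dyes. CASP10, the target, averaged -0.63 (SD 0.60, n = 8 courses) in the myeloma lines and was below 0 in 7 of 8 courses; in SKMM1 repeat 3 it was 0.01. In the fit with the lines weighted equally it was -0.61 on course means (limma adjusted p = 0.682) and -0.28 on single arrays without the wide ones, with the course as a block (limma adjusted p = 0.0254). That call was lost when H929 shCasp10-2 repeat 1, SKMM1 repeat 1 or either KMS12 course was left out (limma adjusted p from 0.0589 to 0.153), or when SKMM1 repeat 3 entered with its sign turned (0.377). CASP10 was above 0 on both OCI-Ly7 arrays, at 2.042 and 1.497. On the OCI-Ly19 arrays it was 0.12 and -0.24, on both sides of 0. So neither lymphoma line had the target lower on both of its arrays labelled shCasp10-2. No direction given for these lines below is tied to a measured loss of CASP10.

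Ribosomal proteins kept close together and close to 0 on nearly every array, also where most features were spread widely. On the 12 wide arrays the interquartile range of all 9681 features, which are gene means and unnamed probes, ran from 1.16 to 5.08, while that of the 29 ribosomal proteins ran from 0.199 to 1.03 and that of the 24 translation factors from 0.383 to 2.49. On the other 28 arrays the range was 0.375 to 1.18 for all features and 0.134 to 1.05 for ribosomal proteins. The ribosomal proteins had the narrower interquartile range on 39 of 40 arrays, and on 37 of 40 when set against named genes alone. The most extreme array was day 1 of H929 repeat 1, where the median of all features was -2.68 and the ribosomal proteins had a median of 0.321. Of 348 ribosomal protein values on wide arrays, 10 lay beyond 3 (2.87%), and of 288 translation factor values 18 did (6.25%), against 19.9% of all feature values. Low spread was not confined to these genes. Over the 8 myeloma courses the SD of a mitochondrial ribosomal protein ran from 0.12 (MRPS15) to 1.19 (MRPL3). For the 29 ribosomal proteins it ran from 0.11 (RPL9) to 1.88 (RPL21P106).

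**Figure D1:**
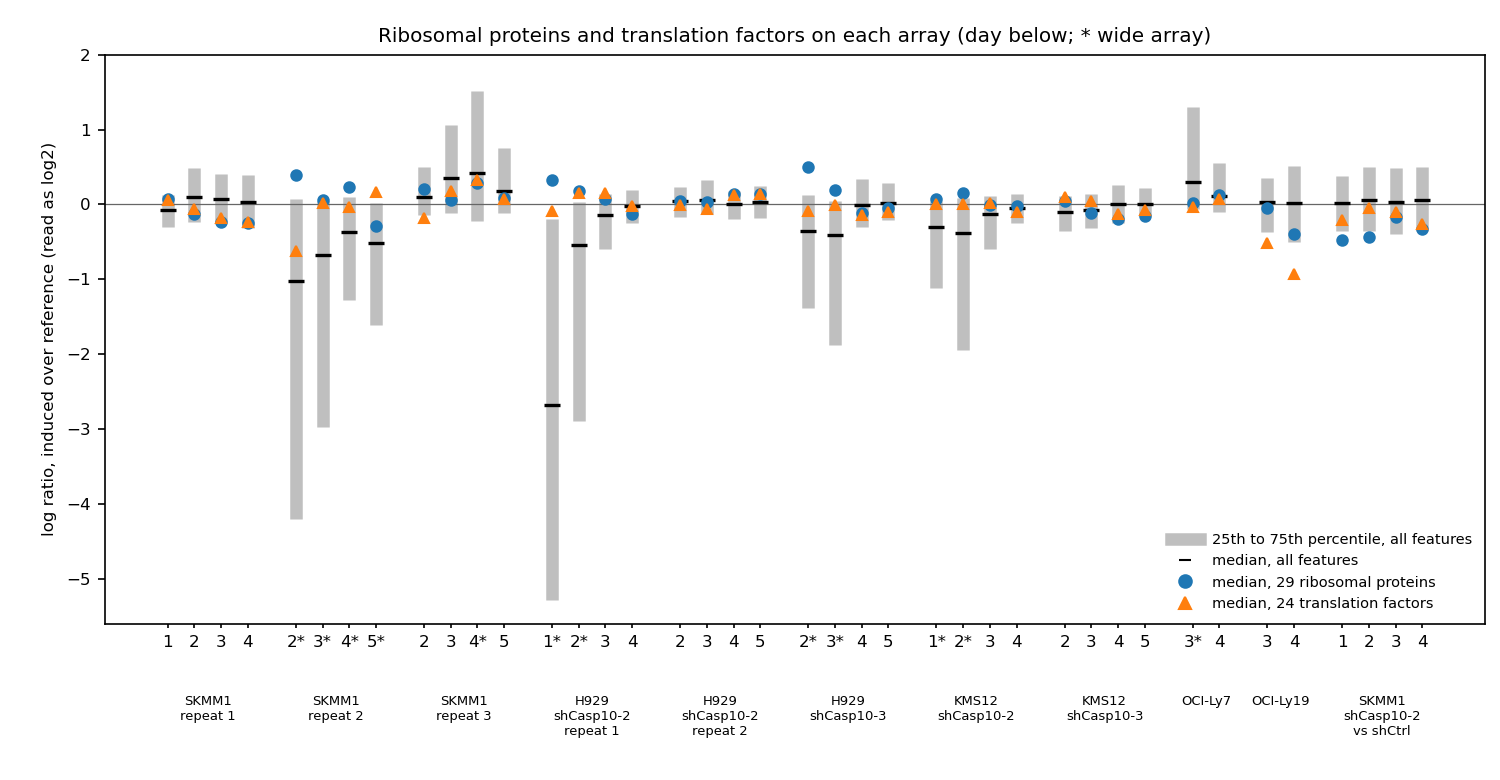
Log ratio (y axis, read as log2) on each of the 40 arrays, by course and day of induction (x axis; an asterisk marks a wide array): grey bars span the 25th to the 75th percentile of all features, black dashes are their median, blue circles the median of 29 ribosomal proteins and orange triangles that of 24 translation factors. Both member groups stay near 0 while the grey bars reach far below it on wide arrays, and the lowest member median is that of translation factors on day 4 of OCI-Ly19, at -0.93.

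Whether the ribosomal proteins stood above or below the bulk of the array therefore depended on the wide arrays. Their median was above the median of all features on 10 of the 12 wide arrays and on 10 of the other 28. Averaged over the 8 myeloma courses (days 2 to 4), the ribosomal protein median lay 0.24 above that of all features (SD 0.46, n = 8), and without the wide arrays it lay 0.041 below it. For the translation factors the same difference was 0.12 (SD 0.32, n = 8) and, without the wide arrays, -0.058. By course, the ribosomal protein median was 1.21 above that of all features in SKMM1 repeat 2 and 0.46 above it in H929 shCasp10-3, both with wide arrays, and 0.28 below it in SKMM1 repeat 1, which had none.

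In the myeloma response, the mean of induced against uninduced cells with the 3 lines weighted equally, no member passed limma's test on course means at a Benjamini-Hochberg adjusted p of 0.05 over all 9681 features. No feature of the array did either (0 called, 0% of those tested; 467 at an unadjusted p under 0.05, and 3 of them members). The median estimate was -0.01 over the members and -0.27 over all features. Of the 53 members, 1 was below 0 in all 8 courses, EIF6, against 3.0% of all features, and none was above 0 in all 8, against 0.496%. Below 0 in at least 7 courses were 7 members (13.2%), near the 12.8% of all features. They were 2 ribosomal proteins (6.9% of that group) and 5 translation factors (20.8%). Above 0 in at least 7 were 3 members (5.66%), against 2.52%.

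The lowest means with such steady signs came from initiation and large-subunit genes. EIF3M, a subunit of eIF3, ranged over courses from -2.12 through a median of -0.49 to 0.25, and its mean was -0.63 (SD 0.68, n = 8 courses; limma adjusted p = 0.682). Its lowest course was SKMM1 repeat 2 and its only one above 0 was H929 shCasp10-2 repeat 2. RPL7L1, a paralogue of RPL7, ranged from -0.95 through -0.23 to 0.08, with a mean of -0.30 (SD 0.30; limma adjusted p = 0.682). RPL11, a large-subunit protein that binds MDM2 when free of ribosomes, ranged from -0.91 in H929 shCasp10-2 repeat 1 to 0.10 in KMS12 shCasp10-3, around a median of -0.22. EIF3H, another eIF3 subunit, ranged from -0.98 to 0.31 around a median of -0.15. EIF6 was low but steady, from -0.52 to -0.02 with a mean of -0.24 (SD 0.19) and 27 of 32 arrays below 0. EIF3M, RPL7L1 and EIF6 had unadjusted p under 0.05, and the size of the spread over courses matched or passed the mean in the first 2 of these.

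The members with steady signs above 0 were small. EEF1A1, the tRNA carrier, ranged from -0.11 in SKMM1 repeat 3 to 0.38 in H929 shCasp10-3, with a mean of 0.19 (SD 0.16, n = 8) and 26 of 32 arrays not below 0. EEF1B2, its exchange factor, ranged from -0.22 in SKMM1 repeat 1 to 0.62 in SKMM1 repeat 2 and averaged 0.18 (SD 0.24). RPL21 averaged 0.09 (SD 0.16) and fell to -0.0017 when single arrays without the wide ones were fitted. None of the 3 passed the test (limma adjusted p from 0.682 to 0.717).

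**Figure D2:**
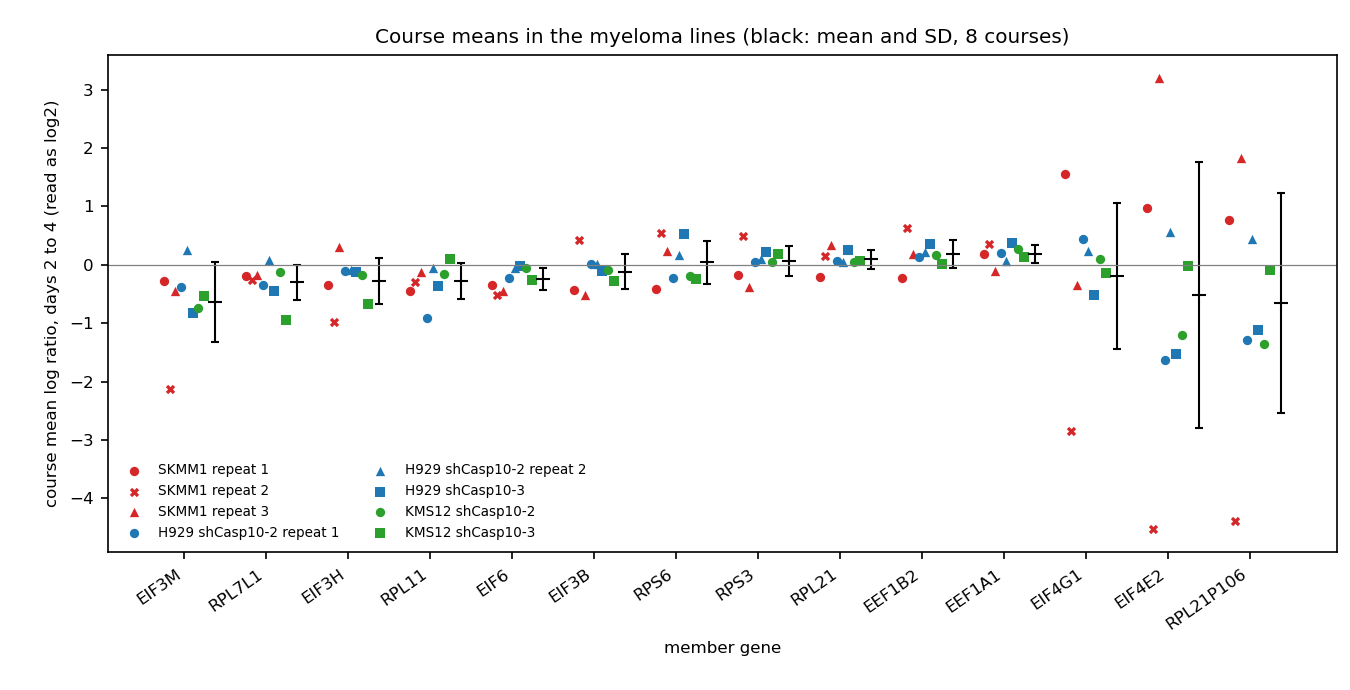
Mean log ratio of days 2 to 4 (y axis, read as log2) in each of the 8 myeloma courses for 14 member genes (x axis), coloured by line, with the mean and SD over courses in black. EIF6 lies below 0 in all 8 courses, the 5 ribosomal proteins other than RPL21P106 stay within 1 of 0, and EIF4E2, RPL21P106 and EIF4G1 range over several units with SKMM1 repeat 2 at the bottom.

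Other core members showed no common direction. RPS6, the small-subunit protein that S6 kinases phosphorylate, ranged over courses from -0.42 in SKMM1 repeat 1 to 0.54 in SKMM1 repeat 2, with a mean of 0.05 (SD 0.37). RPS3 ranged from -0.39 to 0.49 and averaged 0.06 (SD 0.26). EIF2S1, the eIF2 subunit whose phosphorylation lowers initiation, ranged from -1.11 to 0.65 and averaged -0.23 (SD 0.50). EIF4E, the cap-binding protein, averaged -0.26 (SD 0.47), and its inhibitor EIF4EBP1 averaged 0.00 (SD 0.18), each with courses on both sides of 0. EIF3E averaged 0.15 (SD 0.23) and EIF4G2, an eIF4G relative without the cap-binding part, 0.14 (SD 0.27). For each of these the SD over courses exceeded the mean, and none passed the test.

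A few members ranged more widely, and not only on wide arrays. EIF4E2, a relative of EIF4E that binds caps without starting translation, was -4.53 in SKMM1 repeat 2 and 3.20 in repeat 3. The pseudogene RPL21P106 was -4.39 and 1.83 in the same courses, and EIF3C -3.17 and 1.66. The eIF4F scaffold EIF4G1 was low in repeat 2, at -2.85, and -0.35 in repeat 3, where the median of all features was above 0. Of the repeat 3 arrays only that of day 4 was wide. On arrays that were not wide the SD was 1.37 for EIF4E2, 1.24 for EIF4G1, 0.84 for RPL21P106 and 0.81 for EIF3C. Over the 28 arrays that were not wide, the SD of a ribosomal protein ranged from 0.192 to 0.888 with a median of 0.304, against 0.491 for the median of all features. The medians over all 40 arrays were 0.433 and 1.25.

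The wide arrays were then left out and the remaining single arrays were fitted with the course as a random block. In the myeloma response 1 member passed, among 442 called features (4.57% of those tested; 1.44% higher and 3.13% lower). EIF3B, the RNA-binding scaffold of eIF3, fell by 0.27 (SE 0.067, limma adjusted p = 0.0367). Its course means had been -0.44 and -0.52 in SKMM1 repeats 1 and 3, -0.10 and -0.28 in KMS12 and between -0.11 and 0.01 in H929, while in the wide SKMM1 repeat 2 it was 0.43. It no longer passed when H929 shCasp10-2 repeat 1 (adjusted p = 0.0946), H929 shCasp10-3 (0.0631), either KMS12 course (0.106 and 0.210) or SKMM1 repeat 3 (0.0502) was left out, or when SKMM1 repeat 3 entered with its sign turned (0.677). Leaving out SKMM1 repeat 1 gave 5 called members, leaving out H929 shCasp10-2 repeat 2 gave 2, and leaving out SKMM1 repeat 3 gave 4. The number of all features called moved too, from 0 to 790 as single courses were left out. In limma on course means of the same arrays no member and no feature passed (1444 features at an unadjusted p under 0.05).

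This fit called, for SKMM1 alone, 6 of 53 members, 4 higher and 2 lower, among 1130 features (11.7%; 8.32% higher and 3.36% lower). Members were thus called about as often as features in general. EIF4E2 rose by 1.99 (SE 0.38, limma adjusted p = 0.0167), RPL21P106 by 1.28 (SE 0.28), EIF4H, which aids the eIF4A helicase, by 0.80 (SE 0.19) and RPL37 by 0.50 (SE 0.12). EIF3B fell by 0.47 (SE 0.12) and EIF2B2, a regulatory eIF2B subunit, fell by 0.44 (SE 0.13). The 4 that rose were largest in repeat 3, whose array medians were above 0: EIF4E2 was 0.97 in repeat 1 and 3.20 in repeat 3, EIF4H 0.36 and 1.31, and RPL37 0.25 and 1.46. For EIF4H and RPL37 the value in repeat 3 came mainly from 1 of 2 probes. The EIF4H probes were at -0.82 and 3.43 there, on both sides of 0, and the RPL37 probes at 0.32 and 2.61. Without repeat 3 no member passed (limma, 229 features still called), with its sign turned none did (limma, 0 features called, 355 at an unadjusted p under 0.05), and without KMS12 shCasp10-3, which enters through the shared spread, 1 did. Centred on the array median, the same arrays gave 11 members, 4 higher and 7 lower, and moved the split of all called features from 805 higher and 325 lower to 749 and 925. The 5 members gained by centring, EIF6, EIF4E, RPLP1, RPL13 and RPS16, were all lower, from -0.42 for RPL13 to -0.59 for RPLP1.

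Neither the other lines nor the hairpins called a member. The H929 and KMS12 responses, SKMM1 minus H929, H929 minus KMS12 and shCasp10-3 minus shCasp10-2 called 0 features in both fits. At an unadjusted p under 0.05 limma left 151, 77, 40, 24 and 172 features from course means, and 593, 958, 1674, 239 and 584 from single arrays. SKMM1 minus KMS12 called 0 features on course means and 20 (0.207%) on single arrays, none of them members. For the change per day of induction limma called 0 features (1066 at an unadjusted p under 0.05), and EIF2S1 was the only member at an unadjusted p under 0.05, at 0.50 per day (SE 0.15, adjusted p = 0.399).

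SKMM1 was the line with a second reference. There the median of the ribosomal proteins was below 0 on all 4 days against shCtrl and on days 2 to 4 of repeat 1. Against uninduced cells, the median of the 29 ribosomal proteins in SKMM1 repeat 1 was 0.07 on day 1 and -0.12, -0.24 and -0.25 on days 2 to 4. Against cells with the control hairpin it was -0.47, -0.44, -0.16 and -0.33 on days 1 to 4, while the median of all features lay between 0.02 and 0.06. On these 4 arrays 6, 8, 12 and 9 of 29 ribosomal proteins were above 0. On day 1 the references differed: 14 of 29 ribosomal proteins were below 0 against uninduced cells and 23 against shCtrl. Both sets name the same induced hairpin and days, and whether the induced RNA was the same is not stated; each is 1 course, so no test applies.

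On days 2 to 4 of SKMM1 repeat 1, 20 of 29 ribosomal proteins were below 0 on every array (69%), and 12 of 24 translation factors (50%), against 26.8% of all features. With day 1 included, 9 ribosomal proteins (31%) and 6 translation factors (25%) were below 0 on all 4 arrays of repeat 1, against 16.8%. Against shCtrl, 14 ribosomal proteins (48.3%) and 8 translation factors (33.3%) were below 0 on all 4 arrays, against 22.5%. A shift below -0.5 on all 4 was found for 4 ribosomal proteins, RPS6, RPS16, RPLP1 and RPL7L1, against 5.24% of all features. RPS6 was -0.65, -1.12, -1.01 and -0.80 on days 1 to 4, RPS16 was -1.06, -0.89, -0.996 and -0.80, and RPLP1, a protein of the stalk that recruits elongation factors, was -0.999, -0.94, -0.55 and -0.97. These 3 were low on every day against shCtrl, and against uninduced cells of repeat 1 all were below 0 on days 2 to 4, with RPS6 at 0.83 on day 1. A shift above 0.5 on all 4 was found for EIF4E2 and RPL21P106, against 6.47%.

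Translation factors were divided against the control hairpin. EIF3M was -0.50, -0.75, -1.47 and -0.40 on days 1 to 4, EIF3H -1.07, -0.49, -0.60 and -0.90, and EIF4E -0.32, -0.60, -0.60 and -0.80, so 2 subunits of eIF3 and the cap-binding protein were low on each day, as they were on all 4 arrays of repeat 1 with smaller values. EIF4G1, the scaffold that EIF4E binds, went from -0.02 on day 1 to 0.68, 1.27 and 2.72, and in repeat 1 from 0.69 to 0.11, 1.59 and 2.94. EIF4E2 was 1.53, 1.19, 1.34 and 1.05 against shCtrl and -0.72, 0.80, 0.60 and 1.504 in repeat 1.

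Not all ribosomal proteins took part. RPL5, which binds 5S rRNA, was above 0 on all 4 arrays against shCtrl (0.37, 0.55, 0.58 and 0.16) and on all 4 of repeat 1. RPL8 was -0.72 on day 1 and 1.70 on day 4 against shCtrl, and -0.13 and 1.16 in repeat 1. EEF1A1 stayed between -0.22 and 0.16 against shCtrl. Ribosomal proteins with the TOP motif at the listed start had a median of -0.37 against shCtrl (range -0.94 to 0.16, 14 genes). Those without it there had a median of -0.43 (range -0.82 to 0.05, 8 genes). With 1 listed start for a gene, this split cannot tell mRNAs with the motif from those without it.

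The other SKMM1 repeats did not show the same picture. The ribosomal protein median over days 2 to 4 was 0.19 in repeat 2 and 0.20 in repeat 3, with 10 and 11 of 29 below 0. In repeat 3 the median of all features was 0.31, so 7 of 29 ribosomal proteins stood above it, as in repeat 1, where 7 did. In H929 shCasp10-2 repeat 2, which had no wide array, the ribosomal proteins stood higher on the later days only. Above the array median were 16 of 29 on day 2, 13 on day 3, 25 on day 4 and 26 on day 5. In KMS12 with shCasp10-3, also without a wide array, 23 of 29 were above it on day 2 and 5 on day 5.

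**Figure D3:**
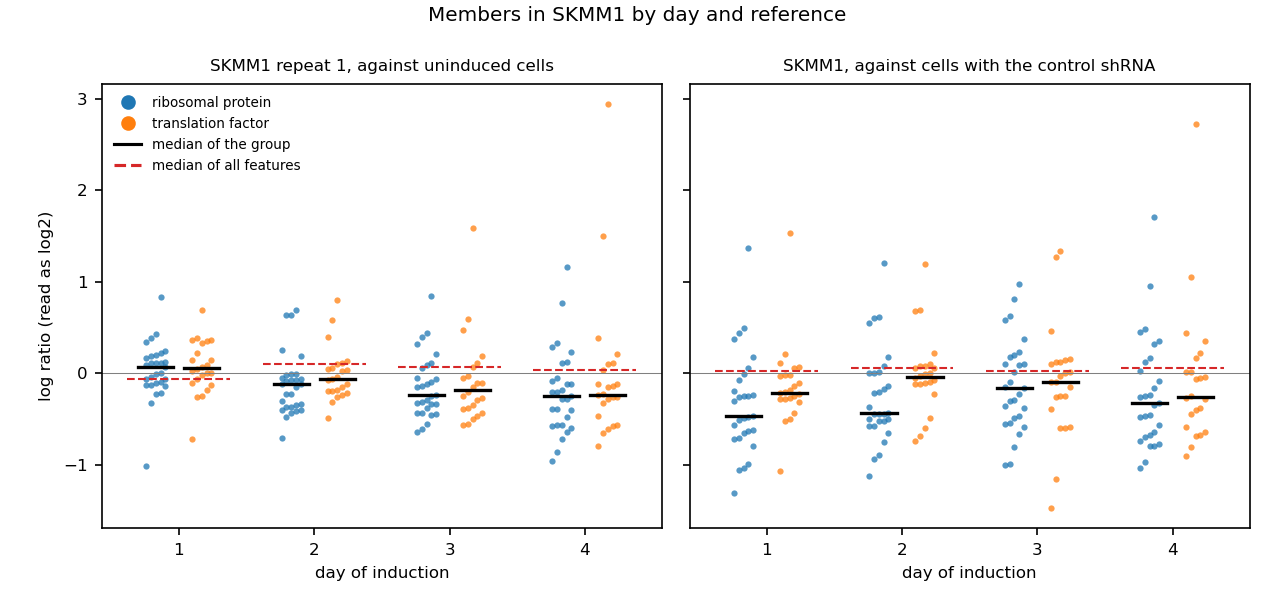
Log ratio (y axis, read as log2) of each of 29 ribosomal proteins (blue) and 23 translation factors (orange; the Y-linked member is not drawn) by day of induction (x axis) in SKMM1 repeat 1 against uninduced cells (left) and in SKMM1 against the control hairpin (right); black bars are the group medians and red dashes the median of all features. The ribosomal protein medians lie below the red line on days 2 to 4 on the left and on all 4 days on the right.

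In OCI-Ly19, a lymphoma line without a wide array, many members were low. Its 24 translation factors had a median of -0.51 on day 3 and -0.93 on day 4, and the ribosomal proteins -0.05 and -0.40, while the median of all features was 0.03 and 0.02. Below -0.5 on both days were 22 of 53 members, 9 of 29 ribosomal proteins (31%) and 13 of 24 translation factors (54.2%), against 12.4% of all features. No member was above 0.5 on both days, against 8.52%. In OCI-Ly7 none was below -0.5 on both days (0.454% of all features) and 5 of 53 were above 0.5 (9.43%), against 22.6%. Over both days the member median minus that of all features was -0.50 in OCI-Ly19 and -0.18 in OCI-Ly7, with 13 of 53 members above the median of all features in each.

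The 14 small-subunit genes had a median of -0.28 in OCI-Ly19 over both days, the 14 large-subunit genes 0.00 and the 24 translation factors -0.75, and single genes of each lay far below these. RPS3, which lines the mRNA entry channel, was -2.099 on day 3 and -3.70 on day 4 in OCI-Ly19, and 0.04 and -0.45 in OCI-Ly7. RPS9 was -1.22 and -2.34, RPS4X -1.57 and -1.74, RPS2 -1.09 and -1.65 and RPS16 -1.33 and -1.02 in OCI-Ly19; in OCI-Ly7 these 4 lay between -0.39 and 0.21. Yet RPS20 (0.34 and 0.22) was above 0 on both days, and RPS21 (0.45 and -0.40), RPS29 (0.23 and -0.40), RPS25 (0.13 and -0.28) and RPS12 (0.11 and -0.33) were on both sides of it. Proteins of 1 subunit thus ranged, as means of both days, from -2.90 for RPS3 to 0.28 for RPS20.

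The large subunit was divided in the same way. RPL13 was -1.36 and -1.89 and RPL8 -0.71 and -2.39 in OCI-Ly19, and RPLP1 was -0.70 and -1.06. RPL5 (0.62 and 0.06), RPL11 (0.50 and 0.08), RPL22 (0.48 and 0.14) and RPL37A (0.32 and 0.17) were above 0 on both days. RPL5 and RPL11, which form the 5S particle with 5S rRNA, were thus both on the upper side. The TOP motif was found on both sides: RPS3, RPS9 and RPS16 hold it and were low, and RPS21, RPL22 and RPL37A hold it and had means of 0.03, 0.31 and 0.24. Over the 14 ribosomal proteins with the motif at the listed start the OCI-Ly19 median was -0.29 (range -2.90 to 0.31). Over the 8 without it there the median was -0.19 (range -1.66 to 0.29), and the same limit of the split holds.

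Among the factors, both elongation and initiation were involved. EEF1A1 was -1.0 and -1.96 in OCI-Ly19, EEF1B2 -0.50 and -1.34 and EEF1D, another eEF1B subunit, -0.46 and -0.94. EEF2K, the kinase that inhibits eEF2, was 0.46 and 0.02. For initiation, EIF2S2, the beta subunit of eIF2, was -1.25 and -1.42, and EIF2B1 was -0.77 and -1.63. In eIF3, EIF3E was -1.56 and -1.32 and EIF3B -0.99 and -0.92, while EIF3M was -0.04 and 0.65 and EIF3H -0.11 and 0.06, so subunits of 1 complex did not move together. EIF4G2 was -1.29 and -1.99, EIF4H -1.41 and -2.60, EIF4E -0.88 and -1.01 and EIF6 -0.44 and -1.28. Each of these low factors was lower on day 4 than on day 3 except EIF3E and EIF3B.

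**Figure D4:**
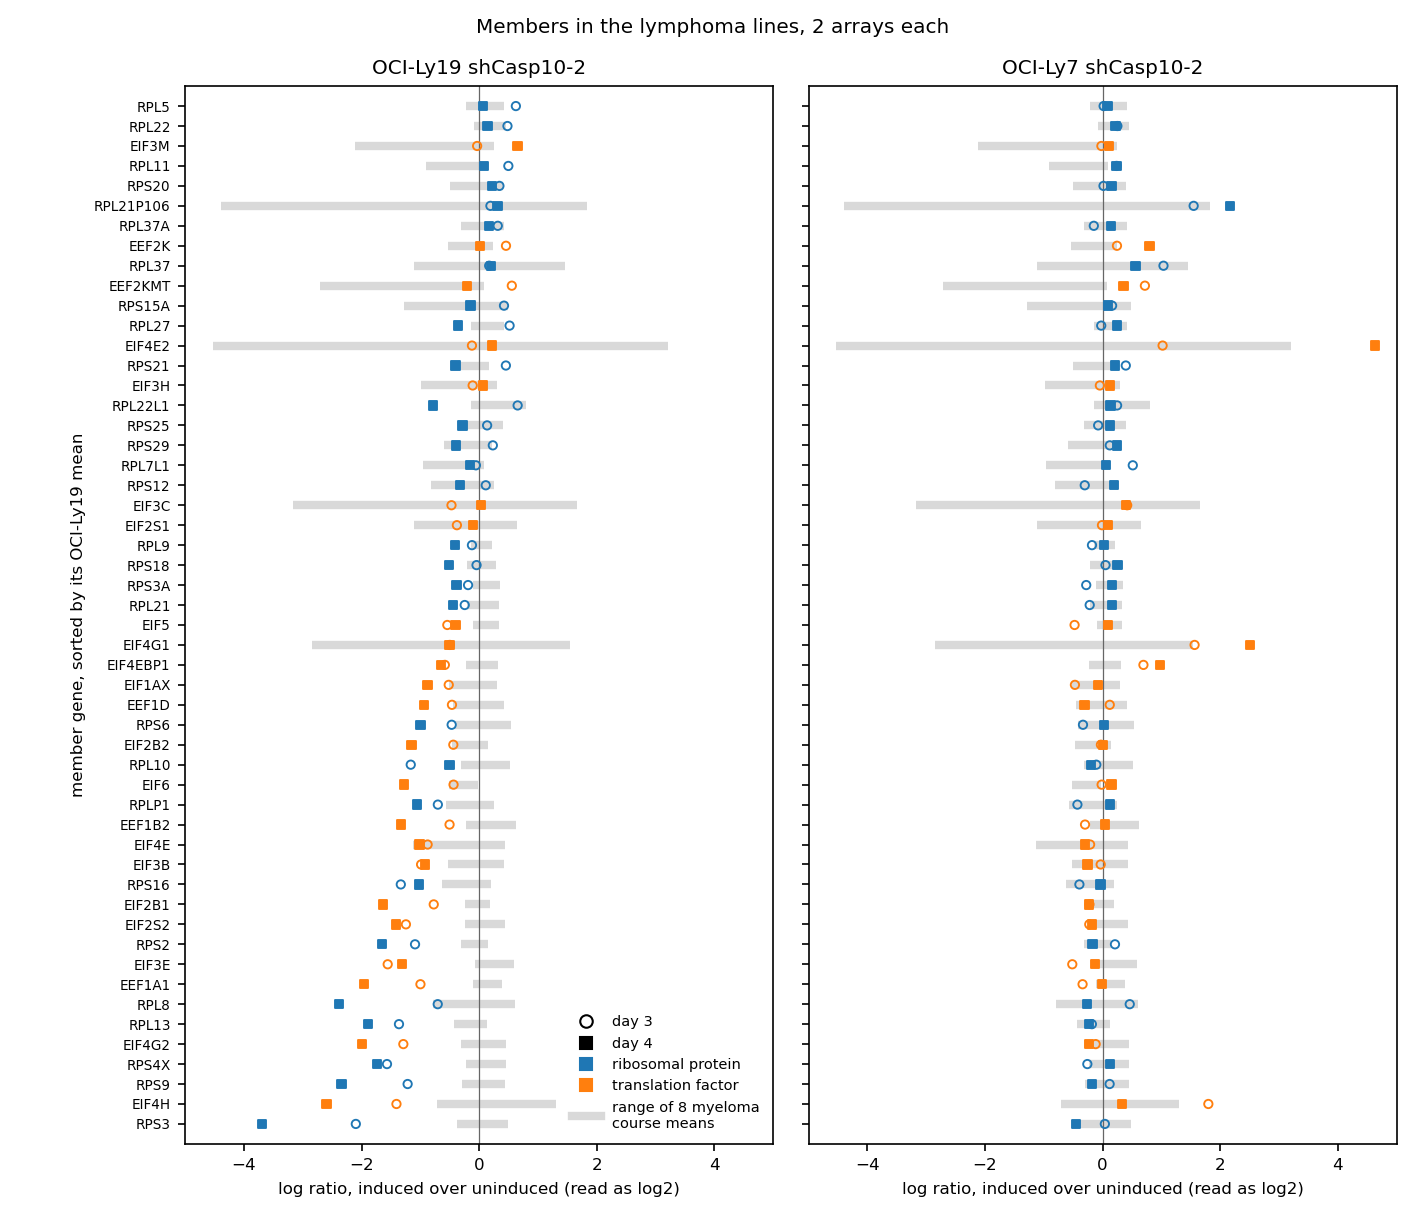
Log ratio (x axis, read as log2) of 52 members (y axis, sorted by the OCI-Ly19 mean) in OCI-Ly19 (left) and OCI-Ly7 (right) on day 3 (open circles) and day 4 (filled squares), ribosomal proteins in blue and translation factors in orange; grey bars span the lowest to the highest of the 8 myeloma course means. In OCI-Ly19 the lowest members, from RPS3 at -3.70 on day 4, lie left of their grey bars, and in OCI-Ly7 EIF4E2 reaches 4.64 on day 4.

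On course means of all arrays no member and no feature passed in the lymphoma response (1180 features, 11 of them members, at an unadjusted p under 0.05 in limma). Without the wide arrays, which removed day 3 of OCI-Ly7, the single-array fit called 16 members, 14 lower and 2 higher, among 1235 features (12.8%), of which 449 were lower (4.64%) and 786 higher (8.12%). RPS3 fell by 1.67 (SE 0.29, limma adjusted p = 0.0028), RPS9 by 0.98 (SE 0.25), EIF4G2 by 0.94 (SE 0.19), RPL13 by 0.93 (SE 0.18) and EEF1A1 by 0.75 (SE 0.19). RPS4X, RPS2, RPS16, EIF3E, EIF3B, EIF2S2, EIF2B1 and EIF4E also fell, by 0.60 to 0.78, as did the Y-linked member. EIF4E2 rose by 2.34 (SE 0.47) and RPL21P106 by 1.21 (SE 0.20).

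The lower calls rested on OCI-Ly19 and the higher ones on OCI-Ly7. Without OCI-Ly7 19 members were called, all lower, against 8.58% of features called lower; without OCI-Ly19 3 were called, all higher, against 7.34%. EIF4E2 was 1.02 and 4.64 in OCI-Ly7 against -0.12 and 0.22 in OCI-Ly19, and without OCI-Ly7 its estimate was 0.05. With 1 course per lymphoma line, the spread in these tests comes from the days of a course and from the myeloma courses, and that between lymphoma lines does not enter. Leaving out 1 myeloma course gave 10 (without H929 shCasp10-2 repeat 1) to 18 members, with up to 2033 of all features called. Course means without the wide arrays called 4 members, RPS3, EIF4G2 and EEF1A1 lower and RPL21P106 higher, among 476 features (4.92%).

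The myeloma response minus the lymphoma response set the myeloma lines against OCI-Ly7 and OCI-Ly19. With 1 course in each lymphoma line, it cannot test a difference between cell types. It called 0 features on course means of all arrays (1032, 10 of them members, at an unadjusted p under 0.05 in limma), and 7 members, all higher in myeloma, among 618 features (6.38%; 2.11% higher) on single arrays without the wide ones. The differences were 1.64 for RPS3 (SE 0.32, limma adjusted p = 0.00944), 0.98 for EIF4G2 (SE 0.22), 0.88 for EEF1A1 (SE 0.21), 0.85 for EIF3E (SE 0.18), 0.78 for EIF2S2 (SE 0.16), 0.72 for RPS2 (SE 0.20) and 0.66 for RPS4X (SE 0.14). Without OCI-Ly19 none of these 7 passed, with RPS3 at 0.42 (limma adjusted p = 0.582) and RPS4X at -0.23. The myeloma estimates of the 7 lay between -0.03 and 0.13 in the same fit. Leaving out 1 myeloma course gave 3 members (without H929 shCasp10-2 repeat 1) to 12 (without SKMM1 repeat 3). Between 396 and 1424 of all features were then called.

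Probes of a gene mostly shared a side of 0 but not a size. Of 30 members with more than 1 probe, all probes lay on 1 side of 0 in OCI-Ly19 for 19, and for 17 in the mean over myeloma courses. All 11 RPL13 probes were below 0 in OCI-Ly19, from -2.42 to -0.40, as were all 4 of RPS4X (-1.95 to -1.46), both of RPS9 (-1.95 and -1.61) and all 3 of EIF2S2 (-1.59 to -1.15). For EEF1A1 7 of 9 probes were below 0, from -4.36 to 0.38, and the EIF4H probes differed, at -3.53 and -0.47. RPS3 had 1 probe. Ribosomal protein and EEF1A1 genes have many near-identical processed copies, and cDNA probes may not tell these apart.

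Of the surrounding pathways, 54 genes were measured. None passed on course means of all arrays in the myeloma, SKMM1 or lymphoma response or in myeloma minus lymphoma. In the single-array fit without the wide arrays, 0 of 54 passed in the myeloma response. Of all features that fit called 4.57% in the myeloma response, 11.7% in SKMM1 and 12.8% in the lymphoma response. In SKMM1 RPS6KA1, a ribosomal S6 kinase, fell by 0.40 (SE 0.10, limma adjusted p = 0.0287) and HNRNPA1, whose mRNA has a TOP motif, rose by 0.60 (SE 0.18). The 7 genes of ribosome assembly were all below 0 in the lymphoma response (median -0.68, against 0.11 for all features), and 2 passed: the transcription factor MYC, which drives ribosome production, fell by 1.36 (SE 0.15, limma adjusted p = 0.000143) and the snoRNP protein NOP56 by 1.81 (SE 0.24). MYC was -2.77 and -2.42 in OCI-Ly19 and -1.04 and -0.13 in OCI-Ly7, and NOP56 was -2.69 and -3.54 in OCI-Ly19 and 0.40 and -0.50 in OCI-Ly7. As means of both days, all 7 were below 0 in OCI-Ly19 but not in OCI-Ly7. There NCL (0.24), PES1 (0.16) and POLR1C (0.03) were above 0, and MYC, NOLC1, FBL and NOP56 below it.

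The counts from the other lists in the lymphoma response stand beside 8.12% of all features called higher and 4.64% called lower. Of 5 further TOP mRNAs 1 fell (NPM1, -0.70, SE 0.20). Of 12 aminoacyl-tRNA synthetases 1 fell (AARS1, -1.05, SE 0.28) and 1 rose (FARS2, mitochondrial, 1.15, SE 0.23). One of 12 mitochondrial ribosomal proteins rose (MRPL3, 1.58, SE 0.37), 1 of 4 genes of termination and poly(A) binding (PABPC1, 1.24, SE 0.35) and 1 of 8 kinases of eIF2 and S6 (RPS6KA3, 1.02, SE 0.30), and 0 of 6 mTOR pathway genes passed. MRPL3 was 2.47 and 3.10 in OCI-Ly7 and -0.13 and 0.25 in OCI-Ly19. In myeloma minus lymphoma MYC (1.12, SE 0.17) and NOP56 (1.79, SE 0.27) passed, both higher in myeloma, and no gene of the other lists did. That comparison called 6.38% of all features, 2.11% of them all as higher.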

How the data were processed

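The authors deposited processed log ratios, read here as log2, 1 per probe and array for 15246 probes; how they were background-corrected and normalised, and their base, the sources used here do not say. Per the labels, induced cells were labelled with Cy5 and the reference with Cy3, 50 ug of total RNA each. Probes were named through the platform annotation, which is old, and averaged per gene; unnamed probes were kept, giving 9681 features. All 53 members matched RefSeq by Entrez identifier with the same symbol. Course means of days 2 to 4 (days 3 and 4 against lymphoma) were fitted with limma 3.58.1 in R 4.3.3, adjusted over all features by Benjamini-Hochberg at 0.05; a second fit took single arrays that were not wide, with course as a random block (duplicateCorrelation). The fits use repeats as labelled on those days. For descriptions over all days, day 1 and day 5 arrays of SKMM1 and H929 were placed by consecutive database numbers: those without a repeat number, and the SKMM1 day 5 arrays labelled repeats 1 and 2, which were put with repeats 2 and 3. Limma was tested on simulated shifts in the design of the myeloma response.

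The members, lists and settings were chosen with earlier results of these data known. Described singly were 17 core genes where measured, members of 1 sign in at least 7 of 8 courses (the 5 highest and 5 lowest) and the 15 members with the smallest p among those past 0.05; EIF2B1, EIF2B2 and EIF4E as called members, and other members and the shift of 0.5, were taken after values were seen. Array number limits the precision, and signal over background is unknown.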

Additional observations from a re-analysis of the deposited data

Results flagged for a closer look

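Of 29 sets of 8 myeloma course means examined, those of 27 described genes and of 2 group medians, 2 held a course that stood apart from the rest (gap over range above Dixon's 0.526), where chance gives about 1 in 20. For EIF4G1 it was SKMM1 repeat 2 at -2.85, and for EIF3M SKMM1 repeat 2 at -2.12. All 4 arrays of that course were wide and its direction is not settled; its part in either value was not tested.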

How the results depend on the processing

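Course means of all arrays called 0 members in all 11 comparisons, and so did centring each array. The number of members called moved most with leaving out the wide arrays and fitting single arrays. Without a block, single arrays called 7 members in the myeloma response, 12 in SKMM1, 5 in SKMM1 minus KMS12, 16 in the lymphoma response and 13 in myeloma minus lymphoma, and with the course as a block 1, 6, 0, 16 and 7. With the block and centring (added after seeing the data) they were 1, 11, 0, 16 and 10. Course means that left the wide arrays out gave 4 in the lymphoma response and 1 in myeloma minus lymphoma, and with centring as well (added) 10 and 1. Centring and scaling gave 1 member in the lymphoma response, as did turning SKMM1 repeat 2. With SKMM1 repeat 3 turned in the blocked fit (added) these comparisons gave 6 and 5. Leaving out 1 course in the blocked fit (added) gave 0 to 5 members in the myeloma response, 0 to 6 in SKMM1, 0 to 6 in SKMM1 minus KMS12, 3 to 19 in the lymphoma response (10 and 14 without H929 shCasp10-2 repeat 1 or 2, 17 and 18 without SKMM1 repeat 1 or 3) and 3 to 12 in myeloma minus lymphoma (8 without either shCasp10-3 course); on course means of all arrays it gave 0 to 2 in the lymphoma response and 0 elsewhere. Among all features the blocked fit called 442, 1130, 20, 1235 and 618, course means without the wide arrays 476 and 206 in the comparisons with lymphoma, centring and scaling 223 and 117, turning SKMM1 repeat 2 135 and 32, and turning repeat 3 41 and 25. With 1 course left out the blocked fit called 0 to 790, 184 to 1447, 0 to 1498, up to 2033 and 396 to 1424 features, in the same order. The number of members called thus moved along with that of all features.

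The positions of ribosomal proteins and translation factors against all features became -0.0405 and -0.0578 without the wide arrays. In the myeloma response EEF1B2 was -0.05063 with SKMM1 repeat 3 turned in the blocked fit and -0.0350 without that repeat. RPL21 was -0.0045 on single arrays, -0.0017 with the block, -0.0201 with the block and centring, -0.0184 on centred course means without wide arrays, -0.05255 with repeat 3 turned and -0.0573, -0.0201 and -0.0107 in the blocked fit without SKMM1 repeat 3, KMS12 shCasp10-3 or H929 shCasp10-2 repeat 2. In SKMM1 RPL21P106 (-0.60 with all arrays) became 1.34 on course means without the wide arrays, 0.295 centred and scaled, 2.33 with repeat 2 turned, 1.23 on single arrays, 1.28 with the block, 1.13 with block and centring, 1.19 on centred course means and, without 1 course, 0.765 to 1.92 in the blocked fit (1.267 to 1.28 without an H929 or KMS12 course; 1.274 without H929 shCasp10-3) and -1.81 (without repeat 3) to 1.30 (without repeat 2) on all course means. EIF4E2 (-0.12) became 2.12, 0.590, 2.90, 1.89, 1.99, 1.84, 1.97 and 0.967 to 3.28 (1.974 to 2.001 without an H929 or KMS12 course; 1.997 without H929 shCasp10-2 repeat 1) under the same settings, and -1.78 and 2.08 on all course means without repeat 3 or 2. With repeat 3 turned, on all course means and in the blocked fit, EIF4H was -0.553 and -0.433, EIF3B 0.173 and 0.00283 and RPL37 -0.336 and -0.241; EIF4H was -0.176 without repeat 3 and 0.836 without repeat 2. Without OCI-Ly19 RPS4X was 0.122 in the lymphoma response and -0.234 in myeloma minus lymphoma (blocked fit), and RPS2 0.0222 and -0.138 (course means; -1.37 and 1.26 without OCI-Ly7). CASP10 passed at -0.279 on single arrays, -0.278 with the block, -0.297 with block and centring and -0.308, -0.298 and -0.295 in the blocked fit without SKMM1 repeat 3, H929 shCasp10-2 repeat 2 or H929 shCasp10-3; without each of the other 4 courses it did not pass (-0.316 to -0.241). The cause was not tested in any of these. No paired analysis was possible because a repeat number names a course within 1 line and does not join samples of different lines. Dye effects, shared by all arrays, cannot be told apart from a response against 0.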
